A study of Mus musculus with 16 samples.

Results

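Sectm1b, Htr5b, Adamts4, Tmem213, Bcat1, Upk1a and Adra2c are 7 mouse genes chosen by their higher array intensity in the caput epididymis after estradiol (E2) than after testosterone propionate (TP), or than in castrated animals given vehicle. The choice named no threshold. They make up 7 of the 18194 genes measured, and 14 of the 45101 probe sets on the array carry one of their symbols and no other. A probe set is a group of short DNA probes on the array whose brightness, here called intensity, rises with the amount of a transcript. Each gene is described by its brightest probe set, and the other 7 probe sets are given where they bear on the result. Because the caput arrays with E2, TP and castrated vehicle were used to choose the genes, their caput values are a description without a test. The efferent duct arrays and the sham arrays were not used in the choice, and the groups tested come from them. The test between the sham tissues takes its spread from all 16 arrays, among them the caput arrays of the choice.

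The arrays came from adult male mice of strain 129BL/6. In the E2 group, castrated mice were injected on day 14 after surgery with 0.015 mg estradiol, and in the TP group with 0.015 mg testosterone propionate, an ester of testosterone. The castrated group was castrated and received vehicle (100 µL of 10% ethanol in sesame oil), and the sham group had a sham operation and the same vehicle. Caput epididymis and efferent duct were taken 12 hours after the injection, which gives 8 groups of 2 arrays, 16 arrays in all. The efferent ducts are the tubules that carry sperm and fluid out of the testis, and the caput is the first large segment of the epididymis behind them. The duplicates carry the numbers 1 and 2, and no source used here states that the animals were separate, so p-values measure the spread between these samples only.

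Estradiol acts mainly through estrogen receptors that bind DNA and switch target genes on or off, and testosterone acts the same way through the androgen receptor. The efferent duct epithelium is known for a very high level of estrogen receptor alpha, which there keeps up the reabsorption of luminal fluid, whereas the caput epithelium depends chiefly on androgen and on factors that arrive from the testis. Castration removes the testicular source of both. The 7 genes do not belong to one pathway: Htr5b and Adra2c encode G protein-coupled receptors, Sectm1b, Tmem213 and Upk1a encode membrane proteins, and Adamts4 and Bcat1 encode enzymes.

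Intensities were scaled by the authors to a trimmed mean of 125 on every array, and the number of arrays limits the precision. The background of an array, taken as the brightest of 27 control probe sets for Bacillus sequences, lay between 7.82 and 12.3 in the caput, between 2.33 and 3.97 on the 4 hormone arrays of the duct and between 8.09 and 14.3 on its 4 vehicle arrays. The duct hormone and vehicle arrays also differed in the log2 ratio of the 3' to the 5' actin probe sets. That ratio reflects RNA or labelling quality, and which of them differed was not tested. It was 0.913 to 1.93 on the hormone arrays against 3.11 to 3.87 on the vehicle arrays. In the duct, hormone treatment and this split of array quality cannot be told apart, while the comparison of E2 with TP lies within the hormone arrays. The labelled tissues fitted their markers: the summed intensity of 10 caput principal cell markers was 9432 and 12395 on the sham duct arrays, against 73584 and 76422 on the sham caput arrays. For 8 markers of the nonciliated efferent duct cells the sums were 7149 and 6702 on the sham duct arrays, against 1481 and 1585 on the sham caput arrays.

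The stretch around the start of transcription was available for 5 of the 7 genes, as windows of 300 bases from RefSeq (build GRCm38.p6) that run from 250 bases before the start site to 50 bases after it. Sectm1b and Tmem213 are shown because their levels followed each other most closely over the caput arrays, Upk1a because its 3 caput groups without E2 lay close together, and Adra2c because it stood above castrated vehicle with both hormones. Each is written 5′ to 3′ on the gene's strand, Sectm1b at chr11:121063520-121063819 (minus strand), Tmem213 at chr6:38109103-38109402 (plus strand), Upk1a at chr7:30612685-30612984 (minus strand) and Adra2c at chr5:35278316-35278615 (plus strand). Capitals mark GGTCA, the short core of the estrogen response element, or TGACC, the same letters on the other strand.
Sectm1b: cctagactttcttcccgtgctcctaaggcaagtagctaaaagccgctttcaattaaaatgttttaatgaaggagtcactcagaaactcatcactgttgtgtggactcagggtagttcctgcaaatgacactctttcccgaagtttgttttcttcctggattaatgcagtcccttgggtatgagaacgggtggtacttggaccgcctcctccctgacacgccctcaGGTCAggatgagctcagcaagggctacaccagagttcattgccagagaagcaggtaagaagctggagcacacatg
Tmem213: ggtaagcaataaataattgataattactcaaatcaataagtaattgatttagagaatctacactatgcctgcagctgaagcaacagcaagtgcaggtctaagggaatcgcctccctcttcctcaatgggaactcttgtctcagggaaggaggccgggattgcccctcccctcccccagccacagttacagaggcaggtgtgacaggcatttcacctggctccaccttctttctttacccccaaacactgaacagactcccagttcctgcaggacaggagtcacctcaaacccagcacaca
Upk1a: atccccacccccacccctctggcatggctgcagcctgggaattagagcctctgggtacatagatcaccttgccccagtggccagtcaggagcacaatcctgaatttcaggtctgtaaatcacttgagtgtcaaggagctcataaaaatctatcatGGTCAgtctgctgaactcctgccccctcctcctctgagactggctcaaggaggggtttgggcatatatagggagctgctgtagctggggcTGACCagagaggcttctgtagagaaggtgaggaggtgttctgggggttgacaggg
Adra2c: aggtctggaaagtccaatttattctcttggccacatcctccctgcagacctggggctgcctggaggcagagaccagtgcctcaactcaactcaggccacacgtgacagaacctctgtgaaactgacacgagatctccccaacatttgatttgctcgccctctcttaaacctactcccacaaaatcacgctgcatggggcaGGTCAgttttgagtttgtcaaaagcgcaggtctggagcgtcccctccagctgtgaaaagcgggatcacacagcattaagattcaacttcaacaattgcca

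The core GGTCA, searched on both strands, was present in 4 of the 6 windows of the members, against 40.5% of all 32851 promoter windows in the table. Its first base lay 25 bases before the start site in Sectm1b, 50 bases before it in Adra2c and 95 bases before it in Upk1a, which had another match 5 bases before the start site in the reverse orientation. Bcat1 has 2 start sites, and the core was found only at the one with the window chr6:145048763-145049062, 173 bases before the start. The palindromic estrogen response element was in 0 of the 6 windows and in 0.0700% of all windows. The androgen response core TGTTCT was in 1 window, that of Upk1a, 31 bases after its start, and in 19.0% of all windows, and the palindromic androgen response element was in 0 of 6 and in 0.00913% of all. The pattern TGANTCA, a loose form of the AP-1 site with any middle base, was in 1 Bcat1 window as TGAATCA (7.81% of all). TATAAA was in the same window (13.6% of all) and the GC box GGGCGG in none (35.7% of all). These matches describe letters in short windows and not sites at which a receptor was measured.

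In the caput all 7 genes had both E2 arrays above both TP arrays, a pattern that 28.0% of all 18194 genes shared and that the choice of the genes fixed in advance. The log2 differences of E2 minus TP ran from 0.71 for Adra2c to 3.85 for Sectm1b with a median of 3.26, where the median over all genes was 0.06. All 7 also had both E2 arrays above both castrated arrays (23.9% of all genes) and above both sham arrays (35.3% of all genes). The comparison with castrated animals was part of the choice too, and that with sham animals shares the E2 arrays with it. Their level with TP told the genes apart. In 6 of them TP lay below the castrated group without overlap, as in 29.4% of all genes, and in Adra2c it lay above it.

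**Figure D1:**
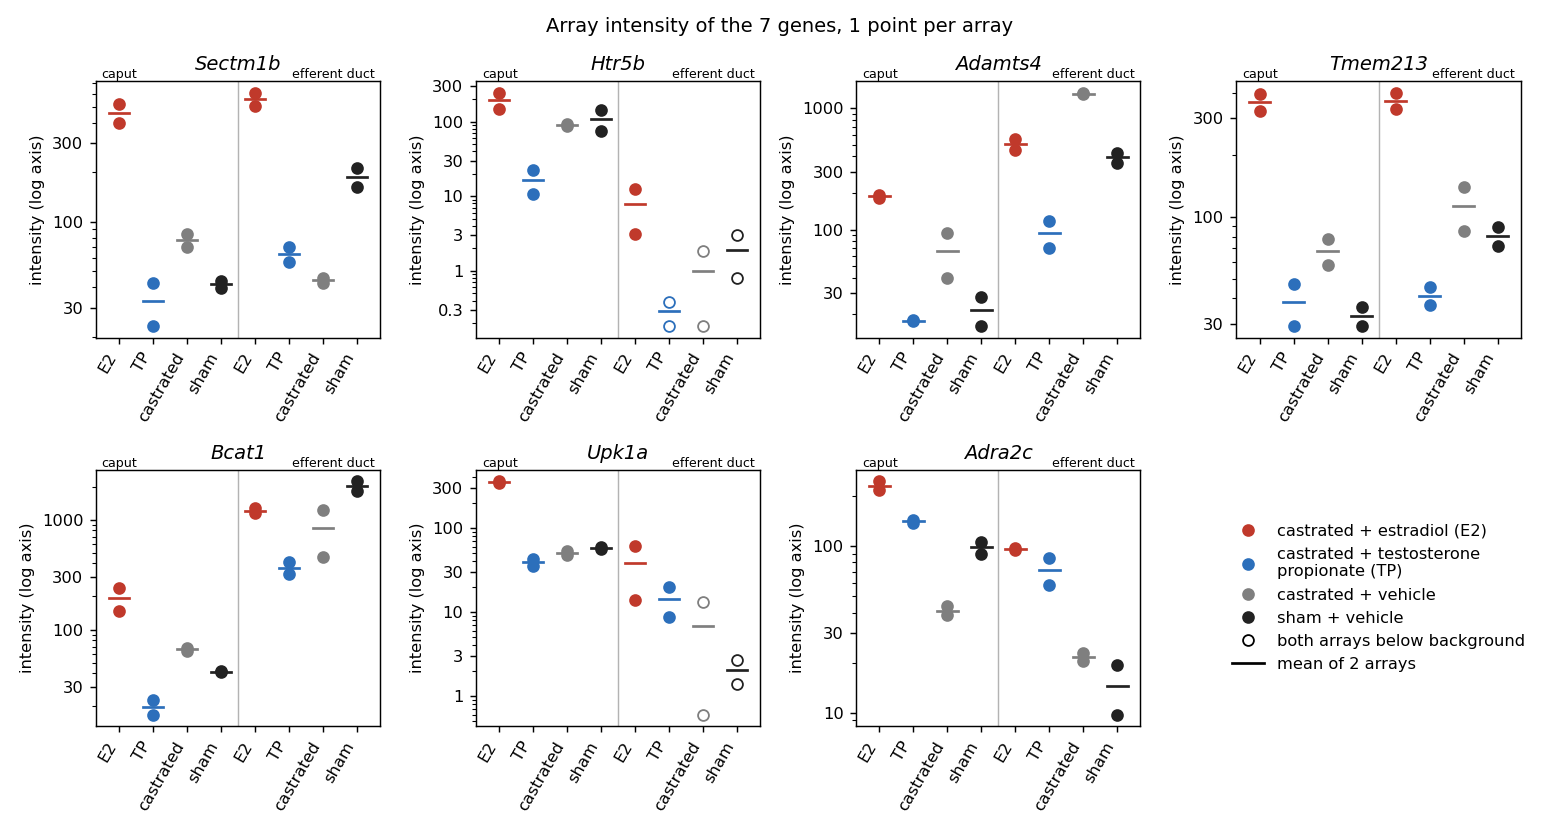
Intensity (log axis) of the 7 genes on each of 16 arrays, with caput groups left and efferent duct groups right of the line in each panel, points for arrays, short lines for means of 2 arrays and open points where both arrays of a group were below background. E2 arrays stand above the other caput groups in every panel, while in the duct Adamts4 is highest in the castrated group at 1340.2 and 1297 and Bcat1 in the sham group at 2229 and 1840.0.

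Htr5b encodes a serotonin receptor that is functional in rodents, while the human copy is a pseudogene. Its caput intensity was 244 and 146 with E2, 10.6 and 22.3 with TP, 91.6 and 87.6 in castrated animals and 144 and 75.7 in sham animals. The TP arrays were the low ones, and the castrated arrays lay within the range of the sham arrays. The log2 difference of E2 minus TP was 3.62 ± 0.50 (SE), rank 38 of all genes, and that of TP minus castrated was -2.55 ± 0.50, whereas E2 minus castrated was 1.08 ± 0.50. Htr5b thus lay further below castrated vehicle with TP than above it with E2. In the duct it was 3.16 and 12.5 with E2, 0.183 and 0.389 with TP, 1.83 and 0.184 in castrated animals and 3.0 and 0.814 in sham animals. Only the E2 pair was above background in the duct, and its replicate 1, at 3.16, barely exceeded the background of that array, 3.14.

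Adra2c encodes the alpha-2C adrenergic receptor, which responds to noradrenaline and lowers cyclic AMP. Its caput intensity was 218 and 245 with E2, 139 and 145 with TP, 43.7 and 38.6 in castrated animals and 90.3 and 106 in sham animals. The 4 groups did not overlap, and both hormone groups stood above the sham group. The log2 difference was 2.49 ± 0.15 for E2 minus castrated and 1.79 ± 0.15 for TP minus castrated, and 0.71 ± 0.15 for E2 minus TP, which ranked 2658 of all genes. Adra2c therefore belongs to the set by its distance to the castrated group. In the duct it had 95.1 and 97.5 with E2, 58.5 and 85.5 with TP, 20.4 and 23.0 in castrated animals and 19.3 and 9.75 in sham animals, so the hormone arrays were high and the vehicle arrays low.

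Sectm1b encodes a membrane protein related to human SECTM1, which is secreted in part and binds CD7 on lymphocytes. Its caput intensity was 522 and 396 with E2, 23.3 and 42.7 with TP, 84.2 and 70.7 in castrated animals and 39.6 and 43.9 in sham animals. The castrated pair stood above the sham pair, and the TP and sham groups overlapped. E2 minus TP was 3.85 ± 0.32 on the log2 scale, rank 23 of all genes, and E2 minus castrated was 2.56 ± 0.32. The duct values were 506 and 609 with E2, 57.3 and 70.4 with TP, 45.7 and 42.5 in castrated animals and 162 and 213 in sham animals. The E2 groups of the 2 tissues overlapped and were the highest of the 8 groups.

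Tmem213 encodes a small transmembrane protein whose function is little studied. In the caput it had 393 and 325 with E2, 29.5 and 47.1 with TP, 78.0 and 58.0 in castrated animals and 29.4 and 36.5 in sham animals, an order of groups close to that of Sectm1b. The log2 difference of E2 minus TP was 3.26 ± 0.30 and that of E2 minus castrated 2.41 ± 0.30. In the duct the values were 332 and 400.2 with E2, 37.1 and 45.4 with TP, 139 and 84.9 in castrated animals and 88.6 and 72.0 in sham animals. The E2 groups of both tissues again overlapped at the top of the order, and the TP groups of both tissues overlapped near its bottom.

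Upk1a encodes uroplakin 1A, a tetraspanin known from the plaques that cover the bladder epithelium. The caput intensity of Upk1a was 358 and 342 with E2, 34.8 and 42.9 with TP, 47.6 and 53.4 in castrated animals and 59.2 and 56.5 in sham animals. The 3 groups without E2 lay close together, and E2 minus castrated was 2.79 ± 0.15 on the log2 scale against 3.18 ± 0.15 for E2 minus TP. In the duct the values were 14.0 and 61.4 with E2, 19.9 and 8.70 with TP, 13.1 and 0.600 in castrated animals and 1.37 and 2.71 in sham animals. Both vehicle groups were below background there, and the E2 and TP arrays overlapped.

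Adamts4 encodes a secreted metalloprotease that cuts the proteoglycans aggrecan and versican. In the caput its arrays read 182 and 193 with E2, 17.5 and 18.0 with TP, 94.2 and 39.9 in castrated animals and 27.6 and 16.1 in sham animals. The castrated arrays lay between E2 and the other groups but were far apart, and the log2 differences were 3.40 ± 0.46 for E2 minus TP and 1.61 ± 0.46 for E2 minus castrated. In the duct it had 558 and 448 with E2, 118 and 70.7 with TP, 1340.2 and 1297 in castrated animals and 356 and 428 in sham animals. There the castrated group was the highest and the TP group the lowest.

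Bcat1 encodes the cytosolic aminotransferase that starts the breakdown of leucine, isoleucine and valine. Its caput intensity was 237 and 148 with E2, 16.8 and 22.9 with TP, 63.5 and 68.4 in castrated animals and 40.8 and 41.9 in sham animals, and the 4 groups did not overlap. The log2 difference was 3.26 ± 0.27 for E2 minus TP, 1.51 ± 0.27 for E2 minus castrated and -1.75 ± 0.27 for TP minus castrated. In the duct its values were 1144 and 1276 with E2, 318 and 414 with TP, 1216 and 453 in castrated animals and 2229 and 1840.0 in sham animals. The sham arrays were the highest, and the castrated arrays differed from each other so much that they overlapped with the E2 group.

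Castrated and sham animals differed in both directions. In the caput, 4 of the 7 (Sectm1b, Adamts4, Tmem213 and Bcat1) stood higher in castrated than in sham animals without overlap, against 35.0% of all genes, with log2 differences of 0.67 for Bcat1 to 1.54 for Adamts4. Adra2c and Upk1a stood lower, by -1.26 and -0.20, and Htr5b overlapped. These values share the castrated arrays with the choice of the genes and carry no test.

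The duct asks whether the difference between the hormones also holds in arrays that played no part in the choice. The design can be read as both tissues taken from each animal. The duct arrays may therefore come from the same animals as the caput arrays that chose the genes. There 6 of the 7 genes had both E2 arrays above both TP arrays, a pattern found in 20.4% of all genes, and Upk1a overlapped. By limma, a linear model fitted across all genes with Benjamini-Hochberg adjustment and a threshold of 0.05, none of the 18194 genes passed for E2 against TP (0% called), and the smallest adjusted p of any gene was 0.0755. At an unadjusted p under 0.05 limma gave 1479 genes (8.13%), and 5 of the 7 were among them. Htr5b was among these 5 with both TP arrays under background and an E2 array barely above it. The median log2 difference of the 7 was 2.45, against -0.01 over all genes.

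Sectm1b, with 506 and 609 after E2 against 57.3 and 70.4 after TP, had the log2 difference 3.13 ± 0.23 and limma's adjusted p of 0.0755, the smallest reached. Tmem213 followed with 3.15 ± 0.30 and an adjusted p of 0.109, and Adamts4 with 2.45 ± 0.30 and an adjusted p of 0.133. These 3 genes passed the threshold when all 16 arrays shared one fit (adjusted p of 0.00387 for Sectm1b and Tmem213 and 0.0324 for Adamts4), when the variance followed intensity or when the dimmest 40% of genes were left out, but they missed it in the fit of the 8 duct arrays. The fit of 16 arrays takes its spread partly from the caput arrays used to choose the genes, so its calls are not independent of the choice. Bcat1 reached 1.73 ± 0.48 with an adjusted p of 0.433. Htr5b was at least 2.47-fold higher with E2 than the background that bounds its TP level, with an adjusted p of 0.459. Adra2c, with 0.44 ± 0.38 (95% interval -0.50 to 1.39), and Upk1a, with 1.16 ± 1.56 (95% interval -2.75 to 5.07), had intervals that include 0 in the duct.

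**Figure D2:**
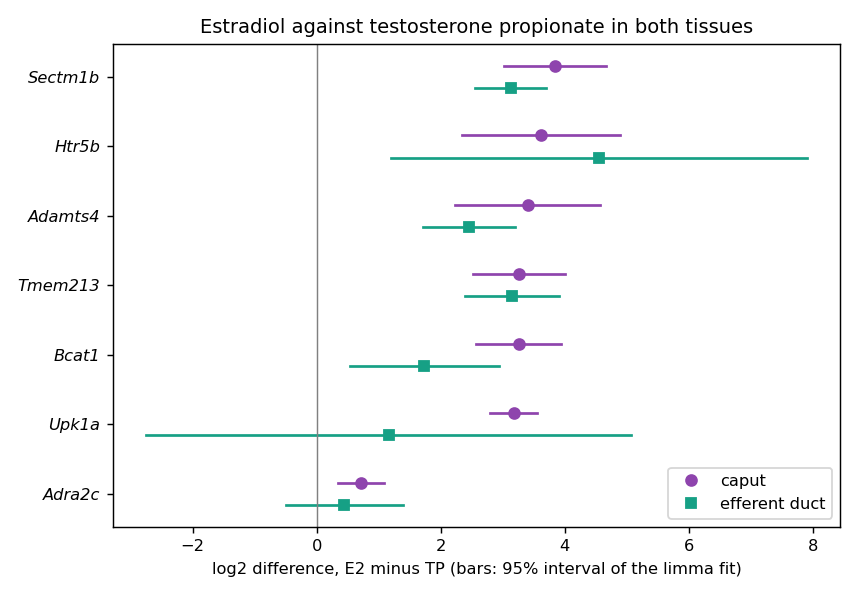
Log2 difference of E2 minus TP (horizontal axis) for the 7 genes in the caput (circles) and in the efferent duct (squares), with 95% intervals of the limma fit. In the duct the intervals of Sectm1b, Tmem213, Adamts4, Bcat1 and Htr5b lie above 0 and those of Upk1a and Adra2c cross 0, while the caput values were used to choose the genes and are shown as a description. The duct difference of Htr5b rests on TP values under background, so its size is not resolved.

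Against castrated vehicle, limma called 3 of the 7 genes higher with E2 in the duct, where 20.1% of all genes were called higher. Sectm1b rose by 3.65 ± 0.23 (adjusted p of 0.00677), Adra2c by 2.15 ± 0.38 (adjusted p of 0.0133) and Tmem213 by 1.74 ± 0.30 (adjusted p of 0.0131) on the log2 scale. Adamts4 fell by 1.40 ± 0.30 (adjusted p of 0.0216), with 558 and 448 after E2 against 1340.2 and 1297 in castrated animals, and 10.8% of all genes were called lower. Upk1a was at least 2.54-fold higher than its castrated bound (adjusted p of 0.160), and Htr5b (adjusted p of 0.109) and Bcat1 (adjusted p of 0.319) did not pass. With a single array left out, the lone array of a group being taken to vary like the others, the call was lost for Sectm1b without E2 replicate 1 (0.0537), for Tmem213 without E2 replicate 1 (0.0633) or 2 (0.0682), and for Adra2c without E2 replicate 1 (0.0723) or 2 (0.0648) or castrated replicate 1 (0.0539). That of Adamts4 was lost without any single one of the 4 arrays (adjusted p of 0.0673 to 0.102).

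TP against castrated vehicle gave 3 calls among the 7 genes in the duct. Adamts4 fell by 3.85 ± 0.30 on the log2 scale (limma adjusted p of 0.00520), a 14.4-fold lower level with 118 and 70.7 after TP against 1340.2 and 1297 in castrated animals. Tmem213 fell by 1.41 ± 0.30 (adjusted p of 0.020), so 2 of the 7 were called lower, against 12.4% of all genes. Adra2c rose by 1.71 ± 0.38 (adjusted p of 0.0212), the only member called higher, against 23.3% of all genes. Sectm1b, at 0.53 ± 0.23, did not pass (adjusted p of 0.128). The Adamts4 call held with each of the 4 arrays left out (adjusted p of 0.0162 to 0.0354), whereas that of Tmem213 was lost without TP replicate 1 (0.0963), TP replicate 2 (0.0535) or castrated replicate 1 (0.0588), and that of Adra2c without any single array (0.0565 to 0.0853).

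The second Adamts4 probe set gave -3.06 for TP against castrated duct without overlap, but for E2 it overlapped, with 225 and 281 after E2 against 280.4 and 499.8 in castrated animals (-0.57). At the brightest probe set the level with E2 stood 5.47-fold above that with TP, by the difference of the mean log2 intensities. Against sham animals in the duct, limma called Adra2c higher with E2 by 2.81 ± 0.38 (adjusted p of 0.0102), Tmem213 by 2.19 ± 0.30 (0.0108) and Sectm1b by 1.58 ± 0.23 (0.0113), 3 of the 7 genes where 18.0% of all genes were called higher. Without E2 replicate 1 the adjusted p was 0.0663, 0.0659 and 0.0659 for these genes in the same order, and without E2 replicate 2 it was 0.0546, 0.0574 and 0.0603. Adamts4 with E2 did not differ detectably from sham (0.35 ± 0.30, 95% interval -0.39 to 1.10), and Upk1a was at least 2.73-fold above its sham bound (adjusted p of 0.118). In these duct comparisons the median of all genes lay 0.22 to 0.27 above 0 on the log2 scale for hormone over vehicle. After quantile normalization it lay between -0.041 and 0.0023, and the share of higher genes among those called was 46.9% in place of 65.0% for E2 against castrated vehicle, 46.9% in place of 64.9% for E2 against sham and 46.1% in place of 65.2% for TP against castrated vehicle.

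In castrated against sham duct, 53 genes or 0.291% passed limma's threshold, and none of the 7 was among them, while 2892 genes (15.9%) and 3 of the 7 had an unadjusted p under 0.05. Sectm1b had a log2 difference of -2.08 ± 0.23 (adjusted p of 0.0526) and Adamts4 one of 1.75 ± 0.30 (adjusted p of 0.0942). Bcat1, at -1.45 ± 0.48, had an adjusted p of 0.249.

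**Figure D3:**
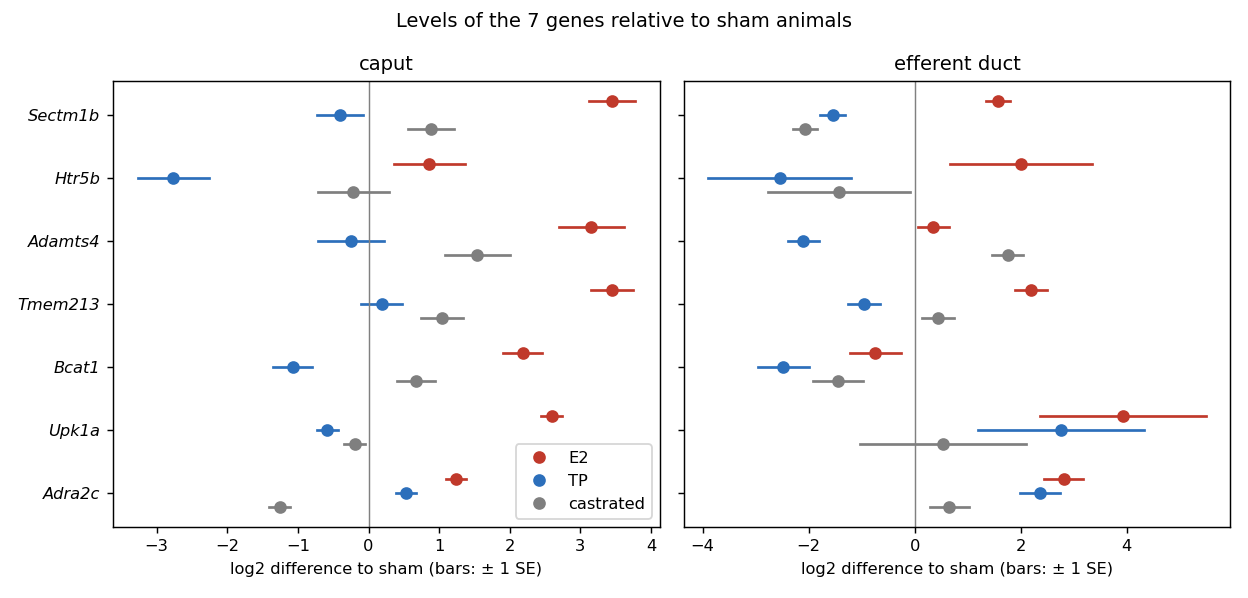
Log2 difference to sham (horizontal axis) of the E2, TP and castrated groups in the caput (left) and efferent duct (right), with bars of 1 SE. In the caput E2 is the rightmost point for every gene, while in the duct castrated Adamts4 lies at 1.75, right of E2 at 0.35, and all 3 groups of Bcat1 lie below 0.

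The sham arrays show where each gene is found when the testis is in place. All 7 passed limma's threshold for sham duct against sham caput, 4 called higher in the duct, against 23.8% of all genes, and 3 called lower, against 31.3%. Bcat1 was higher in the duct by 5.61 ± 0.41 on the log2 scale (adjusted p of 3.13e-06), with 2229 and 1840.0 in the duct against 40.8 and 41.9 in the caput. Adamts4 was higher there by 4.21 ± 0.40 (adjusted p of 1.60e-05), Sectm1b by 2.16 ± 0.28 (adjusted p of 0.000133) and Tmem213 by 1.28 ± 0.31 (adjusted p of 0.00534). Htr5b was at least 9.68-fold lower in the duct (adjusted p of 0.000988), Adra2c 7.14-fold lower (adjusted p of 2.63e-05) and Upk1a at least 5.37-fold lower (adjusted p of 0.00608). The duct RNA was labelled from 50 ng with an amplification kit and the caput RNA from 10 µg with another kit, so tissue and kit cannot be told apart. The 2 receptor genes and the uroplakin gene were therefore the members with the higher sham level in the caput, and the other 4 those with the higher sham level in the duct.

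The probe sets of a gene mostly gave the same direction for E2 against TP. Of the 14, 13 had both E2 arrays above both TP arrays in the caput and 10 had so in the duct. The caput count was largely fixed by the choice of the genes, and the brightest probe sets among the 14 were already counted above. Over all genes, at their brightest probe sets, the shares were 28.0% in the caput and 20.4% in the duct. The second probe set of Sectm1b gave 118 and 84.6 with E2 against 11.3 and 9.32 with TP in the caput, and 94.2 and 101 with E2 against 7.96 and 15.2 with TP in the duct. The other Bcat1 probe sets gave larger duct differences than the brightest one, 3.19 and 2.84 on the log2 scale against 1.73, and at both of them E2 stood above sham (1.48 and 2.21), where the brightest probe set had E2 below sham (-0.75). For Bcat1 in the duct, the direction against sham thus differs between probe sets. Against castrated duct they stood higher with E2 without overlap, at 3.11 and, with castrated below background, at 6.53, where the brightest gave 0.70, and the mean of all 3 was called (3.45, limma adjusted p of 0.0125). Between sham duct and sham caput they gave 1.92 and an overlapping 0.48, where the brightest gave 5.61. Adra2c has 4 probe sets, and the duct calls rest on the brightest: the next one had 12.6 and 29.4 with E2, 12.7 and 16.5 with TP, 22.9 and 4.73 in castrated animals and 7.09 and 20.2 in sham animals, all overlapping. In the caput that same probe set had 172 and 198 with E2 against 51.4 and 51.5 in castrated animals, and the remaining pair was near background in both tissues. With the mean of its probe sets Adra2c lost every call, with 0.50 for E2 against castrated vehicle (limma adjusted p of 0.665), 0.38 for E2 against sham (0.742), 0.51 for TP against castrated vehicle (0.625) and -1.44 for sham duct against sham caput (0.0681). After quantile normalization it had 1.54 for E2 against castrated vehicle (0.0549) and 0.97 for TP against castrated vehicle (0.152). The mean of both Sectm1b probe sets gave 1.00 for E2 against sham in the duct (adjusted p of 0.0901).

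**Figure D4:**
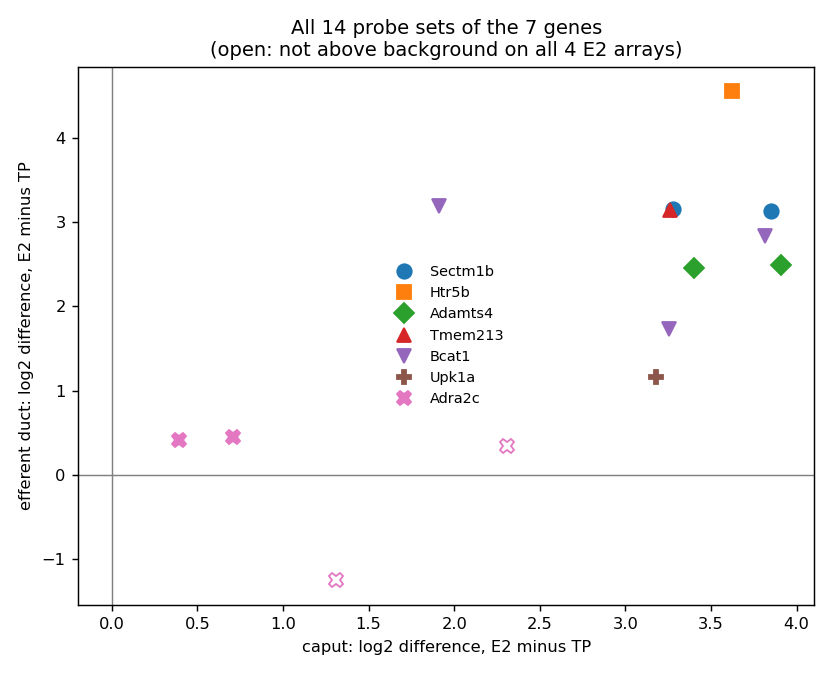
Log2 difference of E2 minus TP in the caput (horizontal axis) against that in the efferent duct (vertical axis) for the 14 probe sets of the 7 genes, open where the probe set was not above background on all 4 E2 arrays. All 14 lie right of 0 in the caput, and 1 open Adra2c probe set lies below 0 in the duct at -1.26.

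Of 8 close relatives of the 7 genes, 6 were measured, and 1 passed the threshold for E2 against TP in the caput, where 0.995% of all genes were called higher and 1.13% lower. Sectm1a, the neighbouring relative of Sectm1b, rose by 1.66 ± 0.23 on the log2 scale (limma adjusted p of 0.0399), with 288 and 231 after E2 against 99.8 and 67.0 after TP. With 1 of these 4 arrays left out, 0 to 13 genes in all passed in the caput, where 387 passed with every array. In the duct Sectm1a had 111 and 110.5 with E2 against 33.8 and 22.2 with TP (2.02 ± 0.66, adjusted p of 0.510). Bcat2, the mitochondrial aminotransferase of the same amino acids, had differences of -0.04 ± 0.23 in the caput and 0.04 ± 0.52 in the duct. The proteases Adamts1 and Adamts5 had -0.22 ± 0.15 and 0.64 ± 0.21 in the caput. Upk1b, a related tetraspanin, was variable between arrays, with 614 and 1056 after E2 against 728 and 139 after TP in the caput. Htr5a was at or near background in both tissues.

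**Figure D5:**
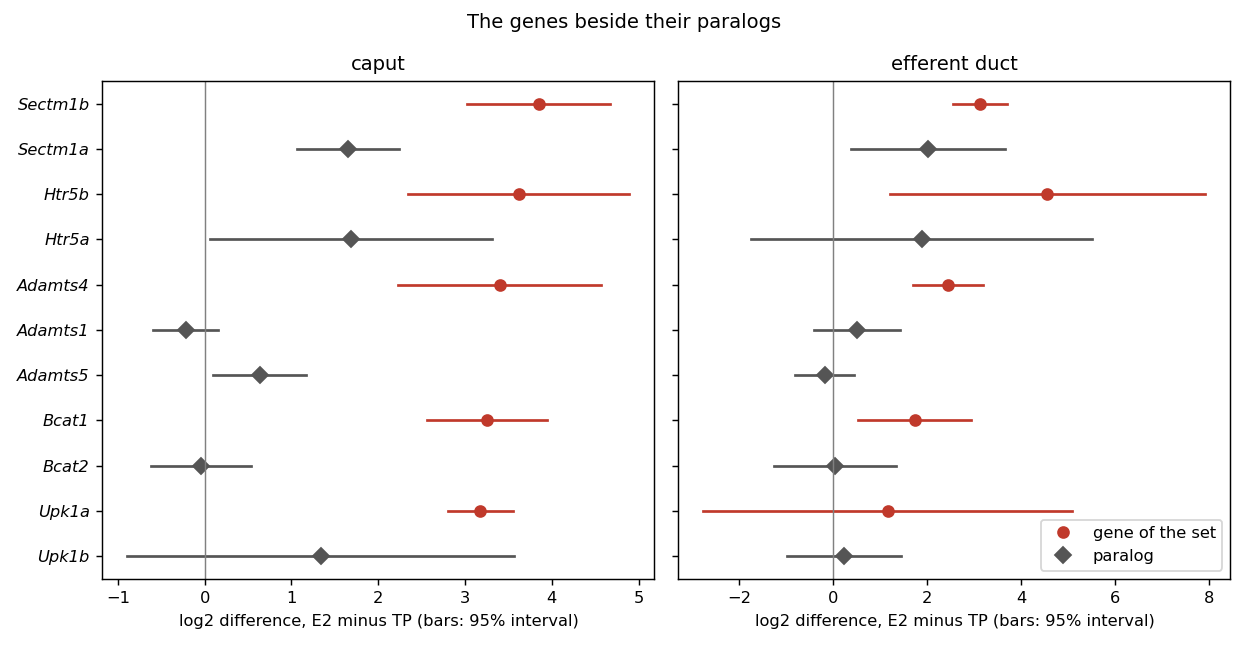
Log2 difference of E2 minus TP (horizontal axis, 95% intervals) for members (circles) and their measured relatives (diamonds) in the caput (left) and efferent duct (right). Sectm1a at 1.66 and 2.02 lies above 0 in both tissues, and Bcat2 at -0.04 and 0.04 lies near 0.

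Genes of the families and pathways around the members were set beside a low background of calls. For E2 against TP in the caput, 0.995% of all genes were called higher and 1.13% lower. By that share alone, lists this short can hold 0 calls. In the caput, for E2 against TP, 0 of 12 serotonin receptors, 0 of 5 further uroplakins, 0 of 12 aggrecanases with their substrates and inhibitor, 0 of 18 genes of branched-chain amino acid breakdown and transport and 0 of 19 subunits of the vacuolar proton pump passed the threshold, and 1 adrenergic receptor beside Adra2c was measured and did not pass. Of the 12 serotonin receptors, 4 were above background on both E2 arrays of the caput and 1 on both TP arrays. Adamts8, another aggrecanase relative, had 32.3 and 37.2 with E2 against 12.1 and 8.62 with TP (1.77 ± 0.35, limma adjusted p of 0.0841). Atp6v0a4, a pump subunit of acid-secreting cells, had 54.0 and 65.7 with E2 against 16.3 and 9.79 with TP (2.24 ± 0.42, adjusted p of 0.0757). Aldh6a1, which acts late in valine breakdown, had 1165 and 1272 with E2 against 1866 and 2045 with TP (-0.68 ± 0.14, adjusted p of 0.0950). In the duct no gene of any of these lists passed, as no gene passed at all. For E2 against castrated vehicle in the caput no gene of any list passed either, by a fit in which no gene at all did.

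Among 37 measured genes known to respond to estrogen, 3 were called higher and 0 lower with E2 than with TP in the caput, with a list median of 0.34 against 0.06 over all genes. Stc2, which encodes the secreted hormone stanniocalcin 2, rose by 1.72 ± 0.20 (limma adjusted p of 0.0309), with 471 and 436 after E2 against 159 and 119 after TP. Vegfa, the vascular growth factor, rose by 1.33 ± 0.16 (adjusted p of 0.0347), and Hsd17b11, a hydroxysteroid dehydrogenase, by 1.11 ± 0.13 (adjusted p of 0.0315). Of 23 androgen-responsive genes, 1 was called higher and 4 lower. Over all genes 0.995% were called higher and 1.13% lower. The number of calls in this comparison changed strongly with the processing, as given below. The epididymal sperm-surface gene Adam7 fell by 3.66 ± 0.20 (adjusted p of 0.0105), with 449.7 and 492 after E2 against 5300 and 6705 after TP, and the protease inhibitor gene Spink5 fell by 3.79 ± 0.24 (adjusted p of 0.0138). Fkbp5, a steroid receptor cochaperone, fell by 1.86 ± 0.12 (adjusted p of 0.0138) and Defb41, a beta-defensin, by 2.02 ± 0.27 (adjusted p of 0.0376).

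Of 4 measured estrogen and progesterone receptor genes, none passed for E2 against TP. Esr1, which encodes estrogen receptor alpha, had 1126 and 1028 with E2, 822 and 1097 with TP, 903 and 1065 in castrated animals and 567 and 511 in sham animals of the caput, and in the duct 1484 and 1719.8 with E2, 1483 and 2099 with TP, 3599.9 and 3647 in castrated animals and 3818 and 3785 in sham animals. Esr1 was therefore present in all 8 groups and overlapped between E2 and TP in both tissues (0.18 ± 0.19 in the caput and -0.14 ± 0.22 in the duct). Pgr, which encodes the progesterone receptor and is a common readout of estrogen action, had 72.9 and 105 with E2 against 25.1 and 30.1 with TP in the caput (1.67 ± 0.27, limma adjusted p of 0.0557). In the duct Pgr had 201 and 264 with E2 against 57.8 and 77.7 with TP (1.78 ± 0.24, adjusted p of 0.149).

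Over the 8 caput arrays, which share their groups and the choice of the genes, the log2 levels of the 21 pairs of members correlated with Pearson's r of 0.01 to 0.99 (median 0.84). Over the 8 duct arrays, r ran from -0.45 to 0.84 (median 0.41), above 0 in 17 of 21 pairs. Htr5b and Upk1a were below background on the duct vehicle arrays, and Htr5b also on the duct TP arrays. The highest duct r, 0.84, was that of Htr5b with Tmem213 and is not resolved. The gene closest to Sectm1b in the caput among 14599 genes detected on at least 4 arrays was Tmem213, with r of 0.99 over 8 arrays, and in the duct the same pair had 0.74. Closest to Upk1a were Smim22, Bag1 and Gpx1 (r of 0.99 each), and closest to Adra2c was Fntb (0.97). Closest to Htr5b was Mef2b (0.99), to Adamts4 Arsi (0.97) and to Bcat1 Ncf1 (0.97), a subunit of the phagocyte oxidase. Bcat1 and Ncf1 had r of -0.31 in the duct.

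Markers of some other cell types were also higher on E2 than on TP arrays, and those of others lower. Beside the signs counted here, the median difference of E2 minus TP over all genes was 0.06 in the caput and -0.01 in the duct. Against vehicle the order could differ, as the castrated caput sums of neutrophil markers, 125 and 181, lay above that of E2 replicate 1. In bulk tissue, fewer cells of a type and less RNA per cell cannot be told apart. The summed intensity of 6 measured neutrophil markers was 97.3 and 646 with E2 against 76.6 and 63.2 with TP in the caput, and 1109 and 5422 with E2 against 404 and 110.1 with TP in the duct, so E2 replicate 2 was high in both tissues. In that replicate Sectm1b, Htr5b, Tmem213, Bcat1 and Upk1a were lower than in E2 replicate 1 of the caput, and Adamts4 and Adra2c higher. In E2 replicate 2 of the duct 6 of the 7 members were higher than in replicate 1, and Adamts4 was lower. For 6 adipocyte markers the caput sums were 1516 and 3008 with E2, 458 and 406 with TP, 318 and 2154 in castrated animals and 876 and 567 in sham animals. In castrated replicate 2, with the high adipocyte sum, Bcat1 (68.4 against 63.5) and Upk1a (53.4 against 47.6) were higher than in replicate 1, and the other 5 members were lower. Macrophage markers summed to 3553 and 3824 with E2 against 2548 and 3070 with TP in the caput, 10 of 10 with a positive difference. None of the genes of these 3 lists passed limma's threshold for E2 against TP in either tissue, and their part in the members' differences was not tested. Sperm and germ cell markers summed to 509 and 111 with E2 against 80.7 and 95.8 with TP in the caput, where 9 of 10 had a positive difference, and to 436 and 186 with E2 against 2469 and 170.1 with TP in the duct, where 10 of 10 had a negative one. Their sham caput sums were far higher, at 8811 and 2377. The 9 urothelial markers summed to 1963 and 2386 with E2 against 1641 and 915 with TP in the caput, 7 of 9 with a positive difference. In the caput 9 of 10 fibroblast markers and 7 of 8 endothelial markers had a positive difference of E2 minus TP. In the duct the 11 ciliated cell markers were negative in 11 of 11 cases, with sums of 3554 and 4747 with E2 against 5006 and 5569 with TP. Neuron and Schwann cell markers there summed to 215 and 198 with E2 against 73.2 and 90.4 with TP, though 6 of 9 were negative. The part of these lists in the members' differences was likewise not tested. Of the urothelial markers, Psca stayed below background on all 8 caput arrays, Krt13 was above it on 1 of 8 and Krt20 on 3 of 8.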

How the data were processed

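RNA of both tissues had been hybridized to 16 one-colour Affymetrix arrays. The deposited intensity values are linear. RMA is listed, without a version, in the submitters' processing notes, but unlike usual RMA output they are not log2 values, and every array has a mean of 125 after trimming 2% at each end. The members and all gene lists were chosen with earlier results of these data known. Of 45101 probe sets, 34958 had 1 symbol in the platform annotation, 932 several and 9211 none. The brightest probe set per gene was kept (9012 genes had more than 1), and log2 of the deposited intensity was fitted with limma 3.58.1 in R 4.3.3 (lmFit, eBayes), 8 arrays and 4 groups per tissue, or 16 arrays for the tissue difference, with Benjamini-Hochberg adjustment over 18194 genes. The steps were tested on simulated data. A group with both arrays under background gives only a bound, and its fold is written as at least. Named were all members, their relatives and receptors, up to 4 called genes per list or, with none called, the gene with the largest difference, of which some are given here, and the 3 genes most alike per member, of which the first or all are given. Of 26 lists, 16 hold cell type markers, and those described were picked with their values known. Same-numbered arrays deviated together with correlations of -0.15 to 0.13, so numbers were not taken as pairs. Summaries were made in pandas 2.3.3 under Python 3.11.15, and plots in matplotlib 3.10.9.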

Additional observations from a re-analysis of the deposited data

Results flagged for a closer look

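Between the tissues, 7 differences at the brightest probe sets ran in opposite directions with no overlap of arrays on either side, and the differences between tissues were not tested. Values are log2 differences in the duct, in the caput, and duct minus caput. Where E2 or TP is set against castrated or sham vehicle, hormone and the split of array quality in the duct cannot be told apart. Tissue and labelling kit cannot be told apart in any of them. For E2 against castrated vehicle, Adamts4 had -1.40 in the duct and 1.61 in the caput, which is -3.01 duct minus caput, and its other probe set overlapped in the duct (-0.57). For E2 against sham, Bcat1 had -0.75 in the duct and 2.18 in the caput (-2.93), although its other probe sets were above 0 in the duct. For TP against castrated vehicle, Sectm1b had 0.53 in the duct and -1.29 in the caput (1.82), but its other probe set (-0.56, overlapping), the mean of both (-0.017) and quantile normalization (-0.39) were below 0 in the duct. For TP against sham, Upk1a had a fitted 2.77 in the duct and -0.58 in the caput (3.35), but duct sham was below background, so that only at least 1.22-fold can be given and TP replicate 2, at 8.70, lay under the background of sham replicate 1, at 14.3. The opposite direction of Upk1a is therefore not resolved. For castrated against sham, Sectm1b had -2.08 in the duct and 0.89 in the caput (-2.96), Bcat1 had -1.45 and 0.67 (-2.12), and Adra2c had 0.66 and -1.26 (1.91). For Adra2c the next probe set (-0.20, overlapping) and the mean of its probe sets (-0.12) had the sign of the caput.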

How the results depend on the processing

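Counts are genes past limma's threshold, and with 1 array left out the lone array of its group is assumed to vary like the others. For E2 against TP in the caput 387 genes passed, with 8 under the replicate block, 777 with intensities under 16 set to 16 and 0 to 13 with 1 array left out. For E2 against castrated vehicle in the caput 0 passed, with 11 after quantile normalization and 333 with the floor of 16. For TP against castrated vehicle in the caput 301 passed, with 7 under the block, 932 with the floor and 6 to 11 with 1 array left out. For castrated against sham caput 2554 passed, with 1593 under the block and 331 to 528 with 1 array left out. In the duct, E2 against TP gave 0, with 134 in the fit of 16 arrays, 120 with an intensity trend, 69 with the floor and 70 without dim genes. E2 against castrated vehicle gave 5621, with 3208 for the mean of probe sets, 3651 after quantile normalization and 0 to 3954 with 1 array left out, 0 being without E2 replicate 1. E2 against sham gave 5047, with 2742, 3019 and 0 to 2060 in the same order. TP against castrated vehicle gave 6495, with 4016, 4017 and 2470 to 4787. Castrated against sham duct gave 53, with 994 in the fit of 16 arrays, 700 with the trend, 34 for the mean, 8 under the block, 236 with the floor, 493 without dim genes and 0 to 62 with 1 array left out. Sham duct against sham caput gave 10039, and 8509 to 8924 with 1 array left out. The replicate block, which the pairing check does not bear out, left all 7 members called between the sham tissues.

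Signs turned as follows, and the cause was not tested. For the mean of probe sets, Adra2c had -0.014 for E2 against TP and -0.12 for castrated against sham, Bcat1 had 0.98 for E2 against sham and 0.86 for TP against castrated vehicle, and Sectm1b had -0.017 for TP against castrated vehicle (-0.39 after quantile normalization), all in the duct. With 1 array left out, Htr5b ranged from -0.68 to 0.24 for castrated against sham caput. In the duct it ranged from -2.77 to 0.53 for TP against castrated vehicle and from -3.08 to 0.23 for castrated against sham. Bcat1 ranged from -0.010 to 1.41 for E2 against castrated vehicle, and Upk1a from -1.68 to 2.77 for castrated against sham. With 2 arrays a group, levels under background and small differences are not resolved.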

Other observations

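Klk1, a kallikrein gene of the androgen-responsive list, had the largest duct difference between the hormones of all genes, with 565 and 687 after E2 against 15.3 and 2.66 after TP (log2 difference 6.61 ± 0.84, limma adjusted p of 0.139). Aqp5, a water channel gene of the estrogen-responsive list, had 256 and 290.2 with E2 against 27.6 and 36.7 with TP in the duct (3.10 ± 0.89, adjusted p of 0.453). Cd7, whose human counterpart is the receptor of SECTM1, was picked from the lymphocyte markers after its values were seen. Of the 9 measured lymphocyte markers, 6 were positive and 3 negative for E2 minus TP in the duct, 2 without overlap. Over all genes, 20.4% had both E2 arrays above both TP arrays there. Cd7 itself had 90.9 and 68.0 with E2 and 26.8 and 15.9 with TP in the duct. Its duct values were 2.80 and 1.79 in castrated animals and 2.06 and 4.86 in sham animals, the vehicle values being under background.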
